A study of Homo sapiens with 7 samples.

Results

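The nuclear genes of the mitochondrial respiratory chain were examined in the human cell line SKOV3, which comes from an ovarian carcinoma. Stable clones had been made with lentivirus and kept under puromycin to lower CtBP1 or CtBP2, which are related transcriptional co-repressors that bind NAD(H). A gene was a member if its current symbol starts with NDUFA, NDUFB, NDUFC, NDUFS, NDUFV, SDH, UQCR, UQCC, COX4, COX5, COX6, COX7, COX8, COXFA or ATP5, or is CYC1. The gene also needed a transcript cluster, the set of probes read as 1 transcript, that the array's annotation gives to a single symbol. The cluster with the highest mean signal stood for its gene. This gave 97 members among 17958 genes measured. The rule fits 110 symbols in RefSeq. Of the other 13, ATP5ME, COXFA4L3, NDUFA1, NDUFS5 and UQCRHL had only clusters with several symbols, and 8 were not analysed here. By symbol, the members are 34 subunits and 7 assembly factors of complex I, 3 and 3 of complex II, 8 and 5 of complex III, 19 subunits of complex IV, 17 subunits of complex V, and the complex V inhibitor ATP5IF1. No filter on low signals was applied, so all 97 were tested.

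The groups were 3 arrays labelled CtBP1 knockdown, 2 of CtBP2 knockdown and 2 of a scramble control, all from puromycin-selected SKOV3 clones. The study set out to find genes that CtBP1 and CtBP2 regulate differently. Each sample is called a clone, and no label says that cultures were grown apart, so the spread behind each p-value is that between these arrays and may be technical. Signals are log2 values from Affymetrix Human Gene 1.1 ST arrays, and a difference of 1 is a doubling of signal. Array signals of different genes are not on a common scale, so differences were taken for each gene against itself across arrays. Mean signals of different genes were used only to choose clusters and to group or describe genes by brightness.

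The respiratory chain passes electrons from NADH and succinate to oxygen along the inner mitochondrial membrane. Complex I takes them from NADH and complex II from succinate. Coenzyme Q carries them to complex III, and cytochrome c carries them on to complex IV, which reduces oxygen. Complexes I, III and IV pump protons, and complex V, the ATP synthase, uses the returning protons to make ATP. Most subunits are encoded in the nucleus, made in the cytosol and imported. A smaller set of core subunits is encoded in mitochondrial DNA and is outside the rule.

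The labels were first checked on the targeted genes. CTBP2 had signals of 4.64 and 4.22 in CtBP2 knockdown, against 5.70 and 6.14 in scramble, a log2 difference of -1.49 ± 0.21 (standard error of the limma fit, as for every ± below; adjusted p = 0.180). CTBP1 read 5.11, 6.13 and 6.13 where CtBP1 knockdown is the label, against 5.69 and 6.37 in scramble. The CTBP1 groups overlapped (-0.25 ± 0.39, limma, adjusted p = 0.849), so these arrays are named by their label throughout. Scramble control 1 stood apart. Its signals had an interquartile range of 2.20 over all genes, against 2.85 to 3.15 on the other arrays, and it correlated with them at 0.926 to 0.941 across genes, which are not independent replicates. Of the 7 epithelial markers ERBB2, KRT7, KRT8, KRT18, KRT19, EPCAM and CLDN4, the last had low signals of 2.43 to 3.26. ERBB2, amplified in this line, was at 8.52 to 9.58. The leukocyte, fibroblast, endothelial, muscle and liver markers had signals of at most 3.56, except the macrophage marker CD68 at 5.90 to 7.11.

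The promoters of these genes are known for a small set of recurring sites, for nuclear respiratory factor 1 (NRF1), for ETS factors such as GABPA, and for YY1. RefSeq's table for GRCh38.p14 holds a window of 250 bases before to 50 bases after the start for 81 of the 97 members. Letters were searched on both strands of 1 window per gene, and none of the searched motifs contains another. GCATGCG, for NRF1, was in 15 of the 81 windows (18.5%), against 5.1% of the windows of 13861 measured genes. CCGGAAG, for ETS factors, was in 20 (24.7%), against 14.5%. AAGATGG, for YY1, was in 15 (18.5%), against 6.44%. CCAAT, for NF-Y, was in 29 (35.8%), against 36.4%, CACGTG, an E-box, in 8 (9.88%), against 8.89%, and TATAAA in 7 (8.64%), against 8.96%. At least 1 of the NRF1, ETS and YY1 letters was in 39 member windows (48.1%), against 23.3% of measured windows. The median GC content was 60.7% in member windows and 63% in measured windows. The 3 windows below belong to members whose signals were higher on both CtBP2 knockdown arrays than on the other 5 arrays. COX7B had the largest signal difference of all members, and COX6A1 and ATP5PF hold NRF1 and ETS letters. Capitals mark every searched motif.
COX7B, chrX:77899218-77899517, plus strand: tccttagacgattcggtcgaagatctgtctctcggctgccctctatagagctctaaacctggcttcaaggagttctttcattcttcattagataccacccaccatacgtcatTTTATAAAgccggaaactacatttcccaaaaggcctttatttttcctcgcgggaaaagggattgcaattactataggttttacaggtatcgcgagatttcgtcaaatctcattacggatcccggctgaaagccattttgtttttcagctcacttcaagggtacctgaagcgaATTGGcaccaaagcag
COX6A1, chr12:120437863-120438162, plus strand: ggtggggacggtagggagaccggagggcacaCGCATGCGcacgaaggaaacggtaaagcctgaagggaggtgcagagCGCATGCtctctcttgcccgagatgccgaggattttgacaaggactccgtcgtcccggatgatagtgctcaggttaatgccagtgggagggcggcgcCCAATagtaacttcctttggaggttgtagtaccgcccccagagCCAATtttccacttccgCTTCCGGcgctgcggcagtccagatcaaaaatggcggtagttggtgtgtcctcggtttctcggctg
ATP5PF, chr21:25735005-25735304, minus strand: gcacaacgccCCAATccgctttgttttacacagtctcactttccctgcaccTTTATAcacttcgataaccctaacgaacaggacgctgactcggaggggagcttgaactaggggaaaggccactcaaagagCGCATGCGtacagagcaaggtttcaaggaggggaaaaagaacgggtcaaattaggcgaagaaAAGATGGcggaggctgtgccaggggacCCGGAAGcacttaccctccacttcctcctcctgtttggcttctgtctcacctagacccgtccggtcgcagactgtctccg
The COX7B window holds TATAAA, read once on each strand in 2 matches that overlap, and CCAAT on the reverse strand. The COX6A1 window holds 3 matches to the NRF1 letters, of which the first pair overlaps, then CCAAT at 2 places and the ETS letters. The ATP5PF window holds letters of 5 of the 6 motifs. These matches describe letters, and binding was not measured.

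Across the 97 members, the median signal was 5.09, 5.17 and 5.30 for the CtBP1 label, 5.51 and 5.60 in CtBP2 knockdown, and 4.49 and 5.32 in scramble controls 1 and 2. After subtracting each gene's mean over the 7 arrays, the members' median deviation was -0.09, -0.01 and 0.00 for the CtBP1 label. In CtBP2 knockdown it was 0.17 and 0.29, and in scramble controls 1 and 2 it was -0.49 and 0.03. In such bulk RNA, fewer cells of a type and less RNA per cell cannot be told apart. Scramble control 1 was the lowest array and the CtBP2 knockdown arrays were the highest. Scramble control 1 held the lowest of the 7 signals for 54 of 97 members, while it was lowest for 32.4% of all genes. CtBP2 knockdown array 2 held the highest signal for 34 members and for 1997 of the 17958 genes. Scramble control 1 was highest for 8 members and for 5658 genes. The difference of scramble control 1 from scramble control 2 had a median of -0.54 over members and -0.02 over all genes. Genes of like signal shared much of this. From 5 to 6 the median was -0.93 for 17 members and -0.74 for all genes, from 6 to 7 it was -0.56 for 17 members and -0.73 for all, and from 8 to 9 it was -0.60 for 7 members and -0.59 for all.

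**Figure D1:**
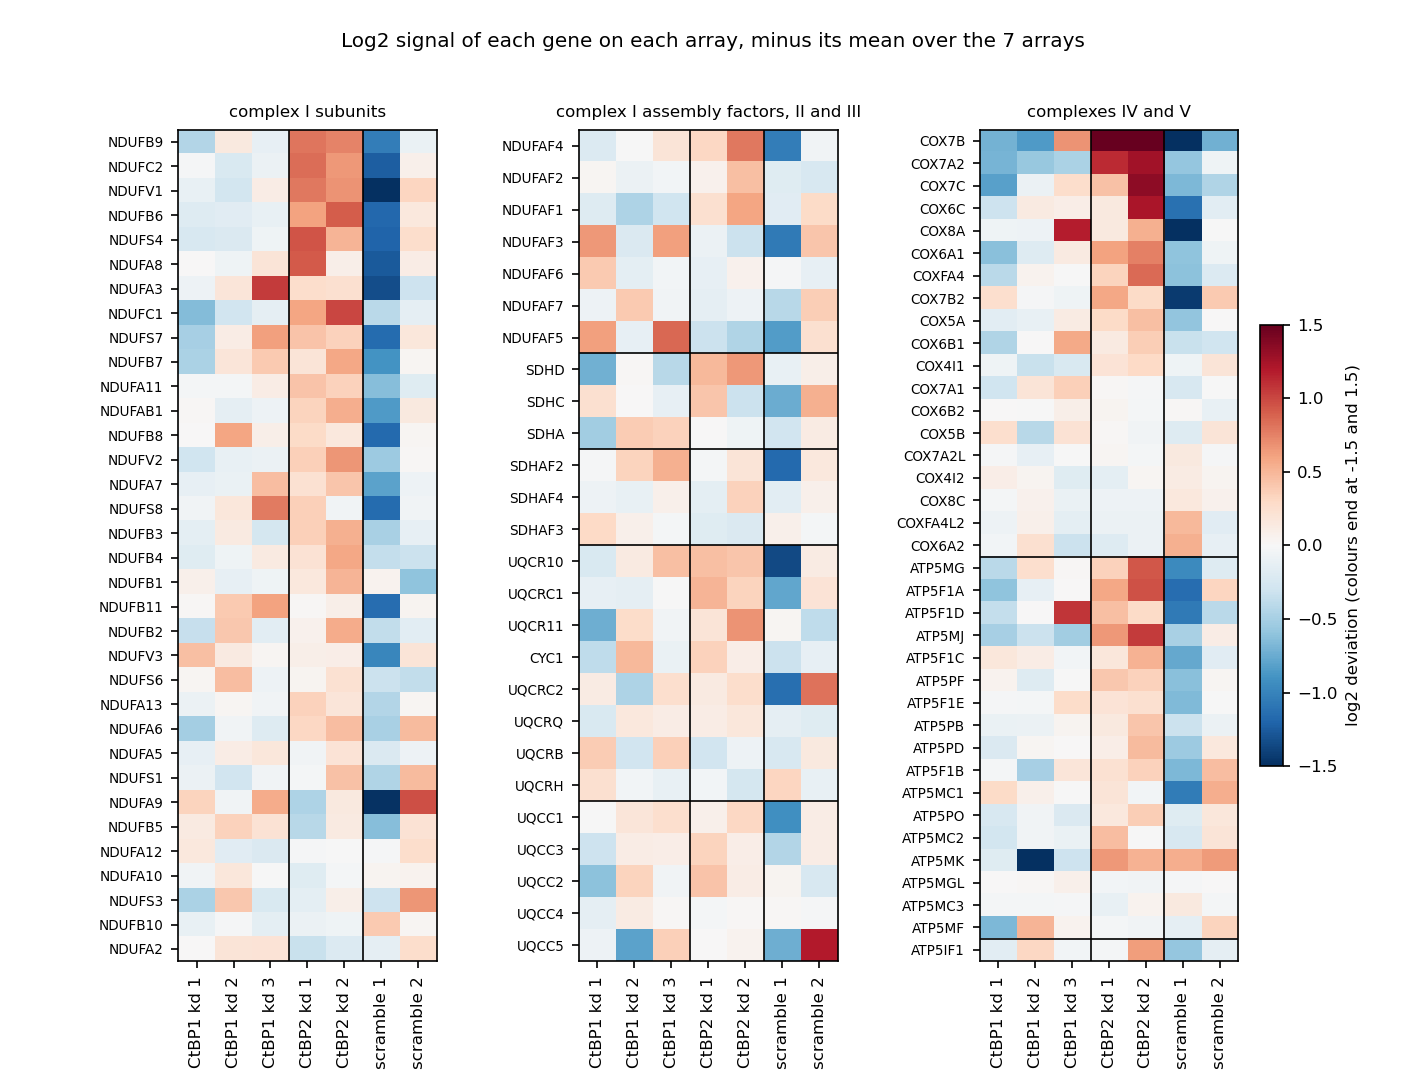
Each row is 1 of the 97 genes and each column 1 array, in the order CtBP1 knockdown as labelled, CtBP2 knockdown (kd) and scramble control. Colour gives the log2 signal minus the gene's mean over the 7 arrays, with colours ending at -1.5 and 1.5. Horizontal lines divide complexes, and genes are sorted within a complex by the CtBP2 knockdown difference. Red prevails in the CtBP2 knockdown columns and blue in the scramble 1 column, where 54 of 97 genes had their lowest signal.

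No member passed the test in any of the 3 comparisons (limma, adjusted p under 0.05 over 17958 genes). The whole array gave 0, 1 and 0 calls for CtBP1 against scramble, CtBP2 against scramble and CtBP1 against CtBP2, which is 0%, 0.00557% (higher) and 0% of genes. When only genes of mean signal 4 or more were tested, 3 genes passed for CtBP2 against scramble (0.0423%, higher), with 0 members among them. The smallest adjusted p of any member was 0.734, 0.180 and 0.129 in that order. Differences below are therefore given as values that missed the threshold, which does not show that signals were alike.

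On the CtBP2 knockdown arrays, 64 of the 81 subunit genes of complexes I to V had a higher mean signal than on the scramble arrays. The median log2 difference over the 97 members was 0.48, against -0.02 over all genes. It was above 0 for 75 members and below 0 for 22, while 47.3% of all genes were above 0. Unadjusted p-values were under 0.05 for 26 members, all with higher signal in CtBP2 knockdown, against 7.19% of genes higher and 2.98% lower. Both CtBP2 knockdown signals were above both scramble signals for 49 members (50.5%), against 19.3% of genes. Against scramble control 1 alone this held for 79 members and 44.7% of genes, and against scramble control 2 alone for 51 and 32.1%. After renewed quantile normalization it held against both for 39 members and 21.3% of genes, and after cyclic loess for 42 and 22.9%. Both were below both scramble signals for 7 members, against 21.7% of genes. Brighter genes differed upward in general. Among genes with a mean signal from 4 to 5 the median difference was 0.67 for 19 members and 0.24 for all genes, and from 5 to 6 it was 0.56 for 17 members and 0.33 for all. From 6 to 7 it was 0.73 for 17 members and 0.29 for all, and from 7 to 8 it was 0.39 for 11 members and 0.24 for all. From 8 to 9 it was 0.48 for 7 members and 0.31 for all, so the members' excess over genes of like signal differed between these ranges.

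The size of this difference rested on the control array. CtBP2 knockdown minus scramble control 1 had a median of 0.79 over members, and minus scramble control 2 it was 0.18. Against scramble control 2 alone, 65 members were above 0 and 32 below. When the deposited values were quantile normalized again, which gives the arrays equal distributions, these medians were 0.39 and 0.18. Without scramble control 1, 0 members passed the test. Without scramble control 2, where scramble control 1 is the sole control and its spread is taken from the knockdown groups, 37 members passed, 35 with higher and 2 with lower signal in CtBP2 knockdown, as did 13.3% of all genes higher and 8.75% lower. Among them were COX7A2 (adjusted p = 0.00734, limma) and COX7B (0.0260). The part of scramble control 1 in these differences was not tested.

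Complex I, which oxidises NADH, had a median difference of 0.74 over 34 subunits in CtBP2 knockdown against scramble. It was the highest of the complexes as grouped by symbol, where complex IV includes alternative forms with restricted use, described below. Medians without those forms were not compared between complexes. The difference was above 0 for 29 complex I subunits and below 0 for 5. The groups did not overlap for 21 with higher and 3 with lower signal in CtBP2 knockdown, against 19.3% and 21.7% of all genes. NDUFC1, an accessory subunit of the membrane arm, had signals of 4.93 and 5.35 in CtBP2 knockdown, against 3.95 and 4.22 in scramble. The NDUFC1 difference was 1.06 ± 0.24, a 2.09-fold signal (limma, adjusted p = 0.306), and both CtBP2 knockdown arrays were above all 5 others. NDUFA11, another membrane arm subunit, had 5.38 and 5.30 in CtBP2 knockdown, against 4.31 and 4.77 in scramble (0.80 ± 0.18, limma, adjusted p = 0.310). NDUFB9, a further accessory subunit chosen after its values were seen, had 7.38 and 7.32, against 5.54 and 6.48 (1.34 ± 0.34, adjusted p = 0.357, limma), the largest difference of the complex I subunits. NDUFV1, the core subunit that binds NADH, was also picked after its values were seen. It had 6.21 and 6.10 in CtBP2 knockdown, against 3.91 and 5.75 in scramble, so that the control arrays lay further apart than the groups did. NDUFA12, the brightest cluster of complex I, had 8.58 and 8.58 in CtBP2 knockdown, against 8.58 and 8.85 in scramble, and its groups overlapped.

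A few complex I subunits lay on the other side. NDUFA2, of the matrix arm, had signals of 6.20 and 6.33 in CtBP2 knockdown, against 6.40 and 6.80 in scramble (-0.34 ± 0.18, limma, adjusted p = 0.534). NDUFB10 had 6.81 and 6.84 in CtBP2 knockdown, against 7.29 and 6.93 in scramble (-0.29 ± 0.15, adjusted p = 0.534, limma). The groups of both genes did not overlap, by gaps smaller than the distance between the control arrays. The third, NDUFA10, differed by -0.15. The 7 complex I assembly factors had a median difference of 0.12, with NDUFAF4 at 1.10 and NDUFAF7 and NDUFAF5 at -0.08 each.

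**Figure D2:**
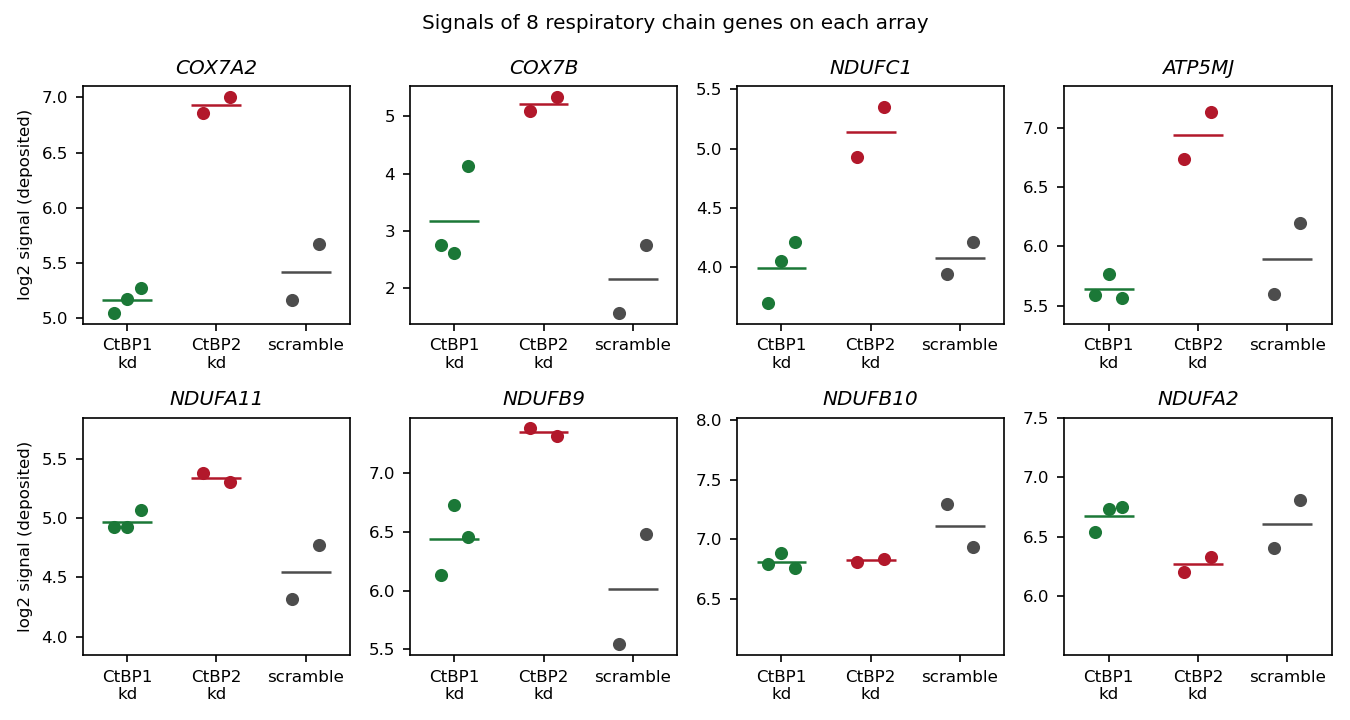
Log2 signals of 8 genes on each array, with CtBP1 knockdown as labelled in green, CtBP2 knockdown (kd) in red and scramble control in grey. Points are arrays, horizontal lines are group means, and vertical axes differ between panels but span at least 2 log2 units. In the first 6 panels both CtBP2 knockdown points lie above all others, as for COX7A2 at 6.86 and 7.01, and in the NDUFA2 panel they lie below all others.

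Complex II, which oxidises succinate and is also an enzyme of the citric acid cycle, showed a smaller difference, with a median of 0.15 over 3 subunits. It was 0.68 against scramble control 1 and -0.16 against scramble control 2. SDHA, the flavoprotein that binds succinate, had 6.65 and 6.57 in CtBP2 knockdown, against 6.36 and 6.77 in scramble. SDHC, a membrane anchor, had 8.35 and 7.60 in CtBP2 knockdown, against 7.18 and 8.46 in scramble. For both genes the groups overlapped. SDHD, the other anchor, had 6.83 and 7.0 in CtBP2 knockdown, against 6.24 and 6.44 in scramble (0.58 ± 0.25, limma, adjusted p = 0.502), and did not overlap. The assembly factor SDHAF3 had 3.13 and 3.09 in CtBP2 knockdown, against 3.39 and 3.28 in scramble (-0.22 ± 0.15, limma, adjusted p = 0.558).

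The clusters that stand for SDHC and SDHD need care. Cluster numbers on this array mostly follow the chromosomes, and the 20 neighbours of these clusters all belong to another chromosome than the gene does. The same held for ATP5MK, NDUFAF2 and NDUFV2, so 5 of the 97 members are in this position, and their probes may read other copies of the gene. SDHD has a second cluster among neighbours of its own chromosome. It had 5.95 and 5.99 in CtBP2 knockdown, against 4.91 and 4.98 in scramble, a difference of 1.03. The second clusters of NDUFV2 and NDUFAF2 differed by 0.90 and 0.27, and that of SDHC by -0.36, with the sign opposite to the 0.15 of the brighter cluster. Without these 5 members, both CtBP2 knockdown signals were above both scramble signals for 46 members in place of 49. Many respiratory chain genes have processed copies elsewhere in the genome, and what their transcripts add to a signal was not measured.

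Complex III, which passes electrons from coenzyme Q to cytochrome c, had a median difference of 0.40 over 8 subunits in CtBP2 knockdown, with 6 above 0. CYC1, the cytochrome c1 subunit, had 6.17 and 5.92 in CtBP2 knockdown, against 5.50 and 5.71 in scramble (0.44 ± 0.29, limma, adjusted p = 0.554). UQCRC2, a core subunit and the brightest cluster of complex III, had 8.15 and 8.29 in CtBP2 knockdown, against 6.90 and 8.84 in scramble, so the groups overlapped. Its partner UQCRC1, picked after its values were seen, had 5.19 and 5.01, against 3.90 and 4.89 (0.71 ± 0.31, limma, adjusted p = 0.505). The 5 UQCC assembly factors had a median of 0.37, and 3 of them were above 0.

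Complex IV, the cytochrome c oxidase, held the members with the largest difference and the smallest p in CtBP2 knockdown. COX7B, a small membrane subunit, had signals of 5.09 and 5.34 in CtBP2 knockdown, against 1.57 and 2.75 in scramble. The difference was 3.05 ± 0.61, an 8.29-fold signal (limma, adjusted p = 0.259), and it was 2.47 against scramble control 2 alone. The scramble signals are low, and the files used give no detection call, so whether they are above background is not known. COX7A2, the widely expressed form of subunit 7A, had 6.86 and 7.01 in CtBP2 knockdown, against 5.16 and 5.67 in scramble. The difference was 1.51 ± 0.20, a 2.85-fold signal (limma, adjusted p = 0.180). The COX7A2 difference was 1.26 against scramble control 2 alone, and COX7A2 ranked 22nd by p among all genes.

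Other complex IV subunits followed at smaller size. COX7C, picked after its values were seen, had 5.41 and 6.32 in CtBP2 knockdown, against 4.30 and 4.52 in scramble (1.45 ± 0.43, limma, adjusted p = 0.394). COX6A1, the form of subunit 6A used outside muscle, had 9.35 and 9.51, against 8.14 and 8.69 (1.02 ± 0.30, limma, adjusted p = 0.393). Its second cluster differed by 0.93, but the 20 neighbours of that cluster all belong to another chromosome, so it may read another copy. COXFA4, formerly counted with complex I as NDUFA4, had 4.05 and 4.56 in CtBP2 knockdown, against 3.09 and 3.51 in scramble (1.00 ± 0.26, limma, adjusted p = 0.357). Over the 19 complex IV members, which include the alternative forms described below, the median difference was 0.57, with 13 above 0. The groups did not overlap for 10 with higher and 2 with lower signal, against 19.3% and 21.7% of all genes.

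Several complex IV subunits have a second gene, in some cases used in muscle, testis or lung. COX4I1, the general form of subunit 4, had 5.15 and 5.24 in CtBP2 knockdown, against 4.89 and 5.14 in scramble. COX4I2, its lung form, had 1.86 and 2.03, against 2.13 and 2.05. COX6A2, the muscle form of subunit 6A, had 2.85 and 2.96, against 3.57 and 2.91. The muscle form COX7A1 had 2.97 and 2.93, against 2.71 and 2.95, and COXFA4L2 had 2.52 and 2.52, against 3.09 and 2.44. Of these alternative forms, COX4I2 had both of its CtBP2 knockdown signals below those of scramble, and the groups of the other 3 overlapped. The testis form COX8C had 1.63 and 1.62 in CtBP2 knockdown, against 1.86 and 1.77 in scramble (-0.19 ± 0.12, limma, adjusted p = 0.550). The alternative forms with restricted use or paralogues of a general subunit were COX4I2, COX6A2, COX6B2, COX7A1, COX7B2, COX8C, COXFA4L2 and ATP5MGL. The median difference over these 8 members was -0.09, with 3 above 0 and 5 below. COX7B2 had the highest, 0.96, with 4.70 and 4.41 in CtBP2 knockdown, against 2.68 and 4.52 in scramble, and its groups overlapped. The median was 0.60 over the other 73 subunits, and the difference between these medians was not tested. As a set the 8 forms were dimmer, with a median of mean signals of 2.43, against 5.82 for the other 73. COX7B2 was brighter than that median of 2.43. All genes with a mean signal from 2 to 3 had a median difference of -0.12, and those from 5 to 6 had 0.33.

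Complex V, the ATP synthase, had a median difference of 0.48 over 17 subunits in CtBP2 knockdown, with 13 above 0. ATP5MJ, a small subunit of the membrane part, had 6.73 and 7.13 in CtBP2 knockdown, against 5.60 and 6.19 in scramble (1.04 ± 0.24, a 2.05-fold signal, limma, adjusted p = 0.323). ATP5F1B, the catalytic beta subunit and the brightest cluster of the complex, had 9.62 and 9.73, against 8.72 and 9.85, so the groups overlapped. ATP5F1C, the gamma subunit that turns inside the catalytic head, had 8.22 and 8.57, against 7.29 and 7.89 (0.81 ± 0.24, limma, adjusted p = 0.393). ATP5MC1, ATP5MC2 and ATP5MC3 encode the same mature subunit of the proton-carrying ring. ATP5MC1 had 9.29 and 9.05 in CtBP2 knockdown, against 8.05 and 9.64 in scramble. ATP5MC2 had 5.87 and 5.40, against 5.16 and 5.60, and ATP5MC3 had 3.17 and 3.34, against 3.43 and 3.26. All 3 ring genes had overlapping groups. ATP5IF1, which inhibits the synthase when it runs backwards, differed by 0.66 ± 0.29 (limma, adjusted p = 0.505).

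**Figure D3:**
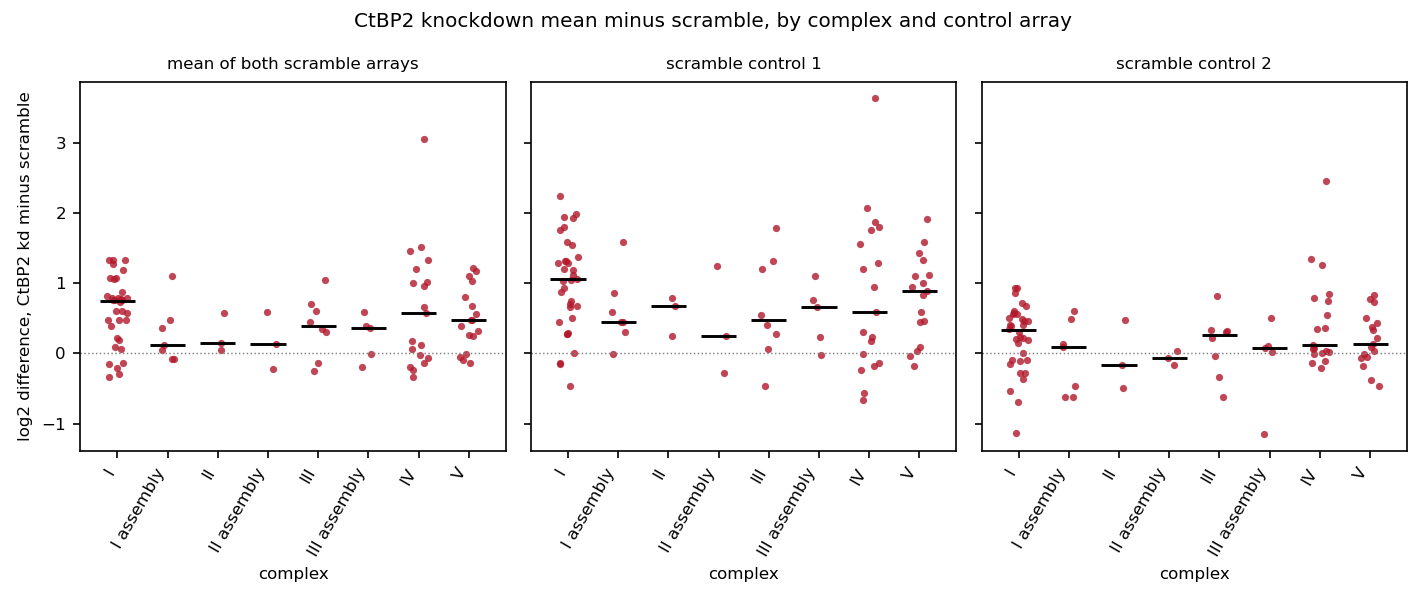
Each point is 1 gene, at its mean log2 signal on the 2 CtBP2 knockdown (kd) arrays minus scramble, against the mean of both control arrays (left), scramble control 1 (middle) and scramble control 2 (right). Horizontal lines are medians by complex. The complex I median is 0.74 on the left, 1.06 in the middle and 0.33 on the right.

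The arrays labelled CtBP1 knockdown differed less from the scramble arrays. The median log2 difference over the 97 members was 0.19, against -0.00 over all genes, with 70 members above 0 and 27 below, while 49.1% of all genes were above 0 and 50.8% below. Genes of like signal were closer to the members: at a mean signal of 4 or more the median was 0.29 for 73 members and 0.20 for all 7092 genes. The median over the 97 members was 0.41 against scramble control 1 and -0.02 against scramble control 2. Unadjusted p-values were under 0.05 for 6 members, 5 with higher and 1 with lower signal on the arrays labelled CtBP1 knockdown, against 2.87% of genes higher and 1.92% lower. The 3 arrays were above both scramble arrays for 7 members (7.22%), against 6.76% of genes, and below both for 3, against 7.59%. Without scramble control 2, 21 members passed the test, 19 with higher and 2 with lower signal, as did 10.8% of all genes higher and 7.34% lower. Without scramble control 1, 0 members passed.

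NDUFA3, a complex I accessory subunit, had the largest positive difference among members whose groups did not overlap. NDUFA3 read 6.88, 7.13 and 8.0 on these arrays, against 5.62 and 6.64 in scramble (1.21 ± 0.42, limma, adjusted p = 0.734). NDUFA11 had 4.92, 4.92 and 5.07, against 4.31 and 4.77 (0.42 ± 0.16, limma, adjusted p = 0.734). NDUFS6, a subunit near the NADH-binding part, had 4.52, 4.96 and 4.41, against 4.17 and 4.13 (0.48 ± 0.19, limma, adjusted p = 0.734). ATP5F1C had 8.22, 8.16 and 8.01, against 7.29 and 7.89 (0.55 ± 0.22, adjusted p = 0.734, limma). In all 4 genes the gap between the groups was smaller than the spread within at least 1 of them.

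ATP5MK, NDUFAF1 and NDUFB10 had lower signals on the arrays labelled CtBP1 knockdown. ATP5MK, a small subunit of the ATP synthase, had 7.40, 5.72 and 7.27, against 8.13 and 8.22 in scramble (-1.38 ± 0.51, limma, adjusted p = 0.734). Array 2 was far below arrays 1 and 3, and this is 1 of the genes whose cluster lies among those of another chromosome. NDUFAF1, a complex I assembly factor, had 1.99, 1.72 and 1.88, against 2.01 and 2.47 in scramble (-0.38 ± 0.19, limma, adjusted p = 0.734). NDUFB10 had 6.79, 6.88 and 6.75, against 7.29 and 6.93 (-0.30 ± 0.14, limma, adjusted p = 0.734). By complex, the median differences were 0.33 for complex I, 0.18 for complex III, 0.11 for complex IV and 0.13 for complex V. Against scramble control 1 complexes I and V had 0.72 and 0.48, and against scramble control 2 they had -0.05 and -0.22.

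The comparison between the knockdowns does not use the scramble arrays except for the shared estimate of the spread. Of the 81 subunit genes of complexes I to V, 56 had a lower mean signal on the arrays labelled CtBP1 knockdown than in CtBP2 knockdown. In complex IV, with its alternative forms, this held for 11 of 19. Over all complexes it held for 55 of the 73 subunits that are not alternative forms, and for 1 of the 8 that are. The median difference of CtBP1 minus CtBP2 was -0.25 over members, against 0.01 over all genes, with 32 members above 0 and 65 below, while 46.8% of all genes were below 0. At a mean signal of 4 or more it was -0.33 for 73 members and -0.08 for all 7092 genes. All 3 arrays labelled CtBP1 knockdown were below both CtBP2 knockdown arrays for 39 members (40.2%), against 15.8% of genes, and above both for 4, against 16.2%. The lower count was 30 after renewed quantile normalization (17.3% of genes) and 32 after cyclic loess (18.7%). Unadjusted p-values were under 0.05 for 17 members with lower and 1 with higher signal, against 5.31% and 2.46% of genes. When only the knockdown groups were fitted, they were under 0.05 for 32 members and 2552 of 17958 genes. No gene passed the threshold in that fit either (smallest adjusted p = 0.0743, limma). Against the mean of the CtBP2 knockdown arrays, the single arrays labelled CtBP1 knockdown had member medians of -0.37, -0.25 and -0.19.

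COX7A2 read 5.05, 5.17 and 5.27 for the CtBP1 label, against 6.86 and 7.01 in CtBP2 knockdown. The difference was -1.77 ± 0.18, a 3.40-fold signal on the CtBP2 side, with an adjusted p of 0.129 (limma), which was the smallest over all genes and was shared with others. COX7A2 passed the threshold after renewed quantile normalization (adjusted p = 0.0471) and cyclic loess (0.0442), and with array weights (0.0155), and its adjusted p was between 0.0155 and 1 over all alternatives. COX7B had 2.75, 2.61 and 4.14, against 5.09 and 5.34 (-2.05 ± 0.55, limma, adjusted p = 0.443), with array 3 of the label well above arrays 1 and 2. ATP5MJ had 5.59, 5.77 and 5.57, against 6.73 and 7.13 (-1.29 ± 0.22, limma, adjusted p = 0.225, 0.0339 with array weights and up to 1 elsewhere). NDUFC1 had 3.70, 4.06 and 4.22, against 4.93 and 5.35 (-1.15 ± 0.21, limma, adjusted p = 0.261). SDHD had 5.62, 6.37 and 5.94, against 6.83 and 7.0 (-0.94 ± 0.23, limma, adjusted p = 0.365), and its second cluster differed by -1.09. In each of these genes both CtBP2 knockdown arrays lay above all 5 others.

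Such a pattern, with both CtBP2 knockdown arrays above all 5 others, was seen for 30 of the 97 members (30.9%), against 10.2% of all genes. These were 13 complex I subunits, 8 of complex IV, 5 of complex V, 1 each of complexes II and III, and 2 complex I assembly factors. The opposite pattern was seen for ATP5MGL, NDUFA2 and SDHAF3, against 9.08% of genes. Without scramble control 1 the count was 30 (11.6% of genes), and without scramble control 2 it was 38 (13.4%). It was 23 after renewed quantile normalization (9.89%) and 23 after cyclic loess (11.1%), and 27 without the members whose cluster lies among those of another chromosome. Members were brighter than genes in general, as 73 of 97 had a mean signal of 4 or more, against 7092 of 17958 genes. Shares of groups that do not overlap were not counted among genes of like signal, here or in the comparisons above. Of the 30 members with the pattern, 27 have a promoter window, and 12 of the 27 hold NRF1, ETS or YY1 letters. Among the members with the largest differences, COX7A2, NDUFC1 and ATP5MJ hold none of the 6 motifs in their windows. Only 1 window per gene was searched, so other starts of these genes are not covered.

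Of the 32 members with higher mean signal for the CtBP1 label than in CtBP2 knockdown, 4 had groups that did not overlap. NDUFAF5, an assembly factor of complex I, had 4.83, 4.10 and 5.08, against 3.90 and 3.77 (0.84 ± 0.40, limma, adjusted p = 0.746). NDUFA2 had 6.54, 6.74 and 6.75, against 6.20 and 6.33 (0.41 ± 0.16, limma, adjusted p = 0.615). SDHAF3 had 3.61, 3.38 and 3.28, against 3.13 and 3.09 (0.31 ± 0.14, limma, adjusted p = 0.693). The dim ATP5MGL differed by 0.08 ± 0.10. By complex, the median of CtBP1 minus CtBP2 was -0.33 for complex I, -0.22 for complex III and -0.35 for complex V. It was -0.21 for complex IV with its alternative forms, while those 8 alternative forms had 0.05. Of the 8, 7 were above 0, and COX7B2 was at -0.37 with groups that did not overlap. All genes with a mean signal from 2 to 3, a range that holds the median of those 8 forms, had 0.03.

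**Figure D4:**
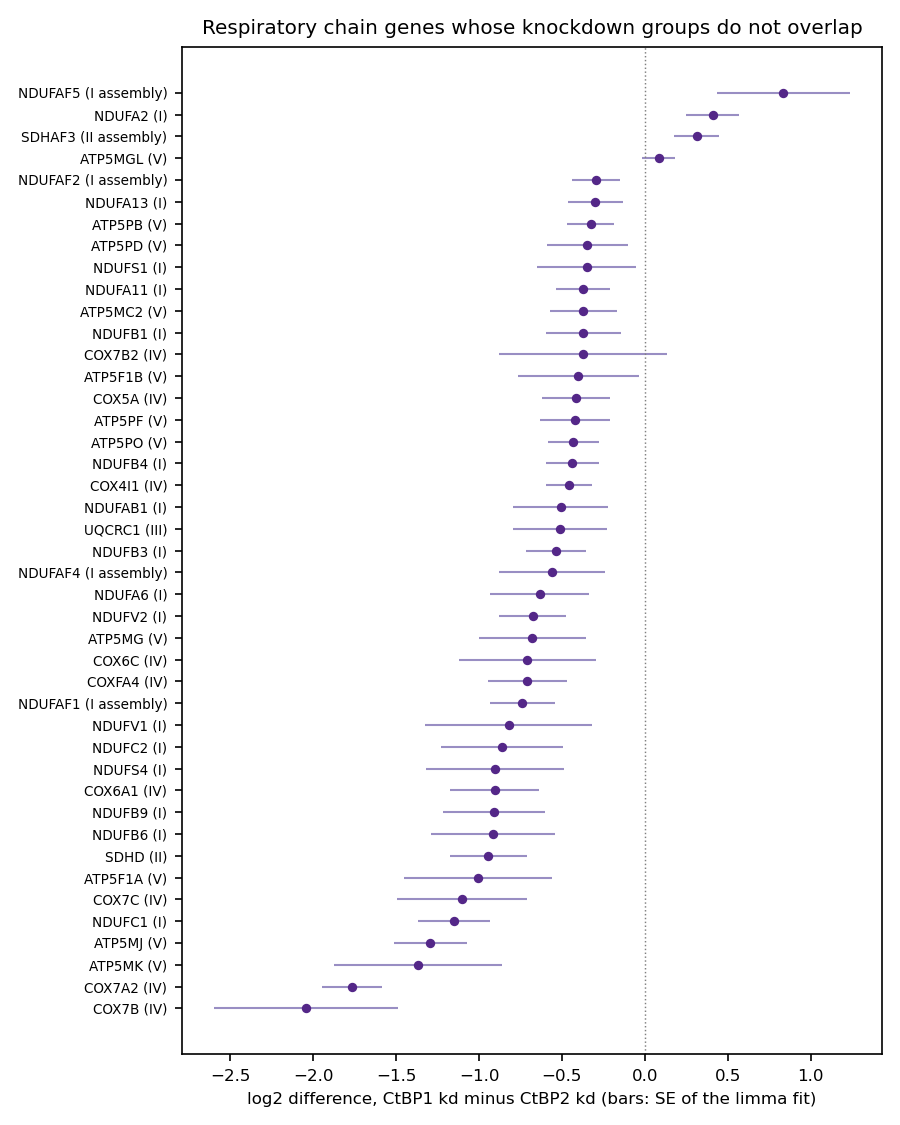
The log2 difference of CtBP1 knockdown as labelled minus CtBP2 knockdown (kd) is shown with its standard error from the limma fit for the 43 genes whose knockdown groups did not overlap, with the complex in brackets. Points left of 0 are genes with higher signal in CtBP2 knockdown. COX7B at -2.05 and COX7A2 at -1.77 lie furthest left, and 4 genes lie right of 0.

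Other genes of the pathway were described from lists that do not overlap the members, and no gene of them passed the test (limma, adjusted p under 0.05). Of the mitochondrial ribosome, which makes the subunits encoded in mitochondrial DNA, 71 genes were measured. Their median difference was 0.43 in CtBP2 knockdown against scramble (53 above 0, 18 below), 0.12 on the arrays labelled CtBP1 knockdown against scramble, and -0.18 for CtBP1 minus CtBP2. For CtBP2 knockdown the median was 0.68 against scramble control 1 and 0.10 against scramble control 2, and for the CtBP1 label it was 0.33 and -0.08. MRPS35, of the small subunit, had 6.45 and 6.52 in CtBP2 knockdown, against 5.01 and 5.48 in scramble. MRPL12, of the large subunit, had 6.31 and 6.04, against 5.08 and 5.23. In both, the CtBP2 knockdown arrays stood above all others, as for the members named above. Of 42 further assembly factors 37 were measured, with medians of 0.27 in CtBP2 knockdown and 0.06 on the arrays labelled CtBP1 knockdown. These were 0.53 and 0.31 against scramble control 1, and -0.04 and -0.16 against scramble control 2. COX14, needed for the synthesis of a core subunit of complex IV, had 3.23 and 3.24 in CtBP2 knockdown, against 2.76 and 2.66 in scramble.

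The 20 genes of cytochrome c, coenzyme Q synthesis and other electron carriers had a median difference of 0.35 in CtBP2 knockdown and 0.20 on the arrays labelled CtBP1 knockdown, both against scramble. Against scramble control 1 these medians were 0.68 and 0.47, and against scramble control 2 they were -0.12 and -0.07, so the sign turned with the control array. CYCS, cytochrome c itself, had 4.65 and 5.02 in CtBP2 knockdown, against 3.30 and 4.39 in scramble. PDSS1, which makes the side chain of coenzyme Q, had 4.83 and 5.66, against 3.76 and 4.49. Pyruvate dehydrogenase and the citric acid cycle (20 of 22 genes measured) had medians of 0.46 and 0.45. These were 1.28 and 1.22 against scramble control 1, and -0.20 and -0.37 against scramble control 2, so their sign turned too. PDK4, a kinase that switches pyruvate dehydrogenase off, had 4.34 and 4.06 in CtBP2 knockdown, against 2.92 and 3.30 in scramble.

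Of the 16 regulators of mitochondrial biogenesis 14 were measured, with medians of 0.10 in CtBP2 knockdown and -0.03 on the arrays labelled CtBP1 knockdown. POLRMT, the mitochondrial RNA polymerase, had 4.57 and 4.46 in CtBP2 knockdown, against 3.81 and 3.96 in scramble (0.63 ± 0.14, limma, adjusted p = 0.294). TFB2M, a transcription factor of mitochondrial DNA, had 5.95 and 5.95, against 6.60 and 6.24 (-0.47 ± 0.19, limma, adjusted p = 0.487). PPARGC1A, the co-activator PGC-1 alpha, had low signals of 1.33 and 1.35 in CtBP2 knockdown, against 1.95 and 1.67 in scramble. GABPA, the ETS factor whose letters were counted above, had 4.51 and 4.29, against 4.24 and 4.36. Of the 14 regulators, 10 were above 0 and 4 below in CtBP2 knockdown against scramble. The CtBP1 label minus CtBP2 knockdown had a median of -0.22, with 2 above 0 and 12 below. The mRNA of a regulator does not measure its activity.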

How the data were processed

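RNA of 7 samples, each called a clone of puromycin-selected SKOV3 cells, was measured on the Affymetrix Human Gene 1.1 ST platform. The authors deposited log2 signals per transcript cluster, made with RMA in Affymetrix Expression Console per the submitters' processing notes, with no versions or genome build given in the sources used here. The labels name a silica column kit for the RNA and the design text TRIzol. The arrays have no counts, and their number limits the precision.

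Symbols came from the platform annotation and were updated through Entrez identifiers with RefSeq GRCh38.p14. Of 33297 clusters, 19181 had 1 symbol, 2055 several and 12061 none. The brightest cluster stood for each of 17958 genes. A limma 3.58.1 fit (R 4.3.3) with 3 group means over 7 arrays, 4 residual degrees of freedom and eBayes gave two-sided p-values, adjusted by Benjamini-Hochberg within each comparison over all genes, with a threshold of 0.05. The fit was tested on simulated data with normal spread taken from these arrays. It called 0% to 2% of changes of 0.5 log2 units, 26% to 36% of changes of 1 and 72% to 78% of changes of 2. Of changes of 3 it called 72% to 90%, and it called 4 to 7 unchanged genes per comparison. Each gene had the same simulated spread on all arrays, so an array that stands apart, as scramble control 1 did, was not simulated. Tables and figures used Python 3.11.15, pandas 2.3.3 and matplotlib 3.10.9.

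The members and lists were chosen with earlier results of these data known. Per comparison and direction, up to 4 members with non-overlapping groups and the smallest unadjusted p are given in full, with CYC1, the SDH subunits, the brightest member of complexes I, III, IV and V, and isoform pairs. Of each other list, up to 2 genes per comparison are named. Alternatives changed the normalization, the low-signal filter, the choice of cluster, the variance model, the arrays weighted or left out, and a replicate block.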

Additional observations from a re-analysis of the deposited data

How the results depend on the processing

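Each alternative listed in the methods was run, and those restricted to subunits, or without members whose cluster lies among those of another chromosome, were chosen after seeing the data. The counts and medians against scramble moved most with the control array. For CtBP1 against scramble, leaving out 1 array at a time gave 0 to 3262 genes and 0 to 21 members past the threshold, with the highest counts without scramble control 2, and a member median of -0.015 (without scramble control 1) to 0.41 (without scramble control 2). For CtBP2 against scramble it gave 0 to 3952 genes, 0 to 37 members and a median of 0.18 to 0.79. The CtBP2 median was 0.26 after renewed quantile normalization. The 1 gene called for CtBP2 became 3 among genes of mean signal 4 or more, and 0 with robust eBayes, only the groups compared, array weights or the replicate block. For CtBP1 against CtBP2, the 0 genes called became 7 after quantile normalization, 9 after cyclic loess and 272 with array weights, with 1, 1 and 2 members among them, and the median was -0.32 to -0.14 when 1 array was left out. The replicate numbers are not stated to pair the samples. Deviations of same-numbered arrays from their group means had correlations of -0.0926 to -0.354 (CtBP1 and scramble), -0.0284 (CtBP2 and scramble) and 0.0863 to 0.0977 (CtBP1 and CtBP2). In a group of 2 arrays the deviations mirror each other, so these correlations cannot decide whether samples were paired. With the replicate number as a block, the medians were 0.16, 0.48 and -0.32 for the 3 comparisons and 0 genes passed.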
